A study of Mus musculus with 12 samples.

Results

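Osteoclasts that lacked Mincle (knockout, KO) were compared with wildtype (WT) osteoclasts, both kept with the supernatant of viable osteocytes, the control condition of the study. The comparison took the 6 libraries whose titles and labels gave these groups, 3 WT viable and 3 KO viable, out of 12 libraries in all, and every gene with enough counts to test. Both groups were bone marrow monocytes differentiated in vitro with M-CSF (20 ng/ml) and RANKL (10 ng/ml). They received the supernatant of viable osteocytes at 1:2 on day 1 for 24 hours, and RNA was taken on day 3. The WT cells came from C57BL/6 mice and the KO cells from Mincle-deficient mice on a C57BL/6 background. The labels give no sex or age, and do not say whether the mice were littermates, so that loss of Mincle and other differences between the lines cannot be told apart. The other 6 libraries, WT necrotic and KO necrotic, differed from these in receiving the supernatant of osteocytes made necrotic by serum starvation. The labels leave unsaid whether replicates were separate animals or wells, and p-values here measure only the spread among these libraries, which could be technical.

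Mincle, encoded by Clec4e, is a receptor of the C-type lectin family on myeloid cells and binds mycobacterial glycolipids and a nuclear protein released by dead cells. It pairs with the Fc receptor gamma chain, an adaptor with an ITAM motif, and signals through the kinase Syk and the adaptor Card9. Osteoclasts are multinucleated bone-resorbing cells of the monocyte lineage, and their formation also needs ITAM signals, which act with RANKL to induce the transcription factor NFATc1. The comparison addresses how far the transcriptome of osteoclasts without Mincle already differed before any signal from necrotic cells was added.

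The promoter of the targeted gene is shown first, followed by those of genes with large changes in either direction. Each sequence runs from 250 bases before to 50 bases after the RefSeq start on GRCm38.p6, 5′ to 3′ on the strand of the gene. Capitals mark 1 match to the C/EBP motif TTNNGCAA, 2 to the PU.1 core GAGGAA and 1 to the TATA box TATAAA in Clec4e (chr6:123289822-123290121, minus strand).
Clec4e: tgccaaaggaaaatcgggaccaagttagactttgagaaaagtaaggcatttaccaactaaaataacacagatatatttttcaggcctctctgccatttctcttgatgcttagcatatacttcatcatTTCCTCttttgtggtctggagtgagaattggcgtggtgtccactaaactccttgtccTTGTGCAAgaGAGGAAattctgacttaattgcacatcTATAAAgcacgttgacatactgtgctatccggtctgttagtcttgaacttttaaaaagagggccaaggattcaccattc
The C/EBP match began 66 bases before the start, the PU.1 core matches 123 bases before it on the minus strand and 56 bases before it on the plus strand, and the TATA box 29 bases before it. Camk2b had the largest fall of the 15 chosen for size, and the capitals in its window (chr11:6065699-6065998, minus strand) mark 3 matches to the GC box GGGCGG, of which the last and the one before share a base.
Camk2b: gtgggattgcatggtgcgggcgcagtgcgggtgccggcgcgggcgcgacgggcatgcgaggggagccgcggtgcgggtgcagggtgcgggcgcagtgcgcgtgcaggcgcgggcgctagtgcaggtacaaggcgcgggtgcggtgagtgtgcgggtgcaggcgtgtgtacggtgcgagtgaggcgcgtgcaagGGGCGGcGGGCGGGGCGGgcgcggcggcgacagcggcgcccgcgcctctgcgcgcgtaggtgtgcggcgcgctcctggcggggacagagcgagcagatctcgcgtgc
Ifi208 had the largest rise of a named gene with a promoter entry and was added for that reason after its values were seen. The capitals in its window (chr1:173673415-173673714, plus strand) mark 1 match to the interferon regulatory factor motif (GAAA, any 2 bases, GAAA), 58 bases before the start. The window also held 1 match each to TTNNGCAA and TATAAA, at 205 and 178 bases before the start, left in lower case. Its 1 match to GAGGAA, at 61 bases before the start, overlaps the interferon regulatory factor match. The closing GAA of that GAGGAA is therefore in capitals.
Ifi208: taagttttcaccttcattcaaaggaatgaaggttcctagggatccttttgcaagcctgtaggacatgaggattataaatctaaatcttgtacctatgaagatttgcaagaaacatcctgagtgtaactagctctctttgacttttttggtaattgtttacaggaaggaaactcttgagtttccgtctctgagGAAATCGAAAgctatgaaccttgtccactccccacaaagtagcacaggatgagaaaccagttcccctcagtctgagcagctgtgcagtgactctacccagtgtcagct
Both strands of 32851 RefSeq promoter windows were searched for each motif. The share with at least 1 match was 10.8% for TTNNGCAA, 28.3% for GAGGAA, 13.6% for TATAAA, 3.44% for the interferon regulatory factor motif and 35.7% for GGGCGG. The GC content was 40% for Clec4e, 42.3% for Ifi208 and 77.3% for Camk2b, against a median of 52.7% over all windows. The matches are a description of these letters and were not tied to binding.

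Clec4e was nearly lost from the KO libraries, which checks the labels. Levels are TMM-scaled counts-per-million (CPM), and Clec4e (chromosome 6, 123281789 to 123289870) stood at 22.8, 23.7 and 26.1 CPM in the WT libraries and at 1.63, 1.57 and 2.43 CPM in the KO libraries. The groups lay far apart, with a log2 fold change (KO minus WT) of -3.66 and a standard error (SE) of 0.15 (adjusted p = 5.02e-10, edgeR quasi-likelihood test over all genes tested). Of the 8 other lectins of the Dectin-2 cluster around Clec4e, 1 rose and 0 fell, against 2.87% of all genes tested called higher and 2.97% called lower. Clec4n, which encodes Dectin-2, a receptor for fungal mannans that uses the same gamma chain, was at 69.3, 50.9 and 54.3 CPM in WT and at 88.6, 90 and 80.6 CPM in KO. All KO libraries were above all WT libraries (log2 fold change 0.57, SE 0.09, adjusted p = 0.00211), and the call was kept with any 1 library left out. Clec4d, the partner lectin of Mincle also known as MCL, overlapped between the groups, at 363, 293 and 288 CPM in WT and 328, 317 and 306 CPM in KO (log2 fold change 0.01, SE 0.07, adjusted p = 0.942). Clec4a1 (0.16, adjusted p = 0.0621), Clec4a2 (-0.09), Clec4a3 (0.06), Clec4a4 (-0.08), Clec4b1 (0.02) and Clec4b2 (0.03) did not pass.

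Over the transcriptome, 14153 of 46983 genes had enough counts, and 827 passed an adjusted p of 0.05, which is 5.84% of the genes tested. Of these, 406 were higher in KO (2.87%) and 421 lower (2.97%). Most differences were small: the median size of a called log2 fold change was 0.29, and 85 genes (0.601%) differed at least 2-fold, 33 higher and 52 lower. At an unadjusted p of 0.05, 3375 genes (23.8%) passed. The count was 449 in a fit of the 2 groups alone and 227 to 894 with 1 library left out, lowest without KO viable 2 (227) and KO viable 3 (228) and highest without WT viable 3 (894). Upper-quartile scaling turned the split to 303 higher and 619 lower.

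The viable libraries held 16382366 to 49612055 counts, the deepest being WT viable 3, and 3 counts amounted to 0.0598 to 0.182 CPM, the limit that a count of 0 allows for counting error alone. In a principal component analysis of 1000 genes over the 6 libraries, the first component (45.2% of the variance) put the WT libraries at -18.1, -13.6 and -8.59 and the KO libraries at 9.39, 14 and 16.9. The second component (19%) set KO viable 1 (17) apart from the others. Longer transcripts tended to read higher in KO: over 10143 genes the log2 fold change and the length of the transcript had a Spearman rho of 0.51, and of 0.16 after smooth length and GC trends had been removed from each library. The deviation of WT viable 1 from the mean of the 6 libraries had a rho with length of -0.61, against -0.17 and -0.09 in the other WT libraries and 0.34 to 0.38 in the KO libraries. In the fifth of genes with the shortest transcripts 8.48% were called lower and 0.838% higher, and in the fifth with the longest 0.936% lower and 9.56% higher. With the trends removed, 598 genes (4.23%) passed, 345 higher (2.44%) and 253 lower (1.79%).

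**Figure D1:**
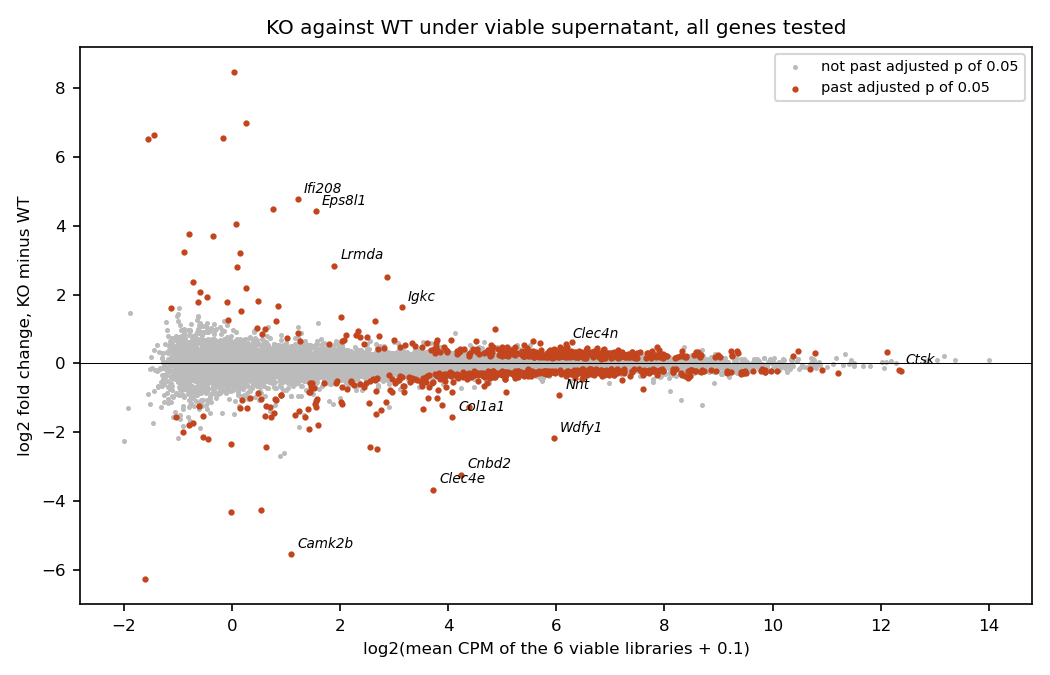
Each point is 1 of 14153 genes, with the log2 of its mean level in the 6 viable libraries on the horizontal axis and the log2 fold change of KO against WT on the vertical axis. The 827 genes past the adjusted p are coloured, and most lie close to 0. Clec4e (-3.66), Camk2b (-5.53) and Ifi208 (4.77) are among those far from 0, as are Igkv8-21 (6.99) and Nefh (-6.25).

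The identity of the cultures showed in their osteoclast genes, which were abundant and close between the genotypes. The 30 genes of osteoclast differentiation and resorption summed to 24697 to 25273 CPM in WT and 22895 to 23339 CPM in KO. Of these 2 fell and 0 rose, against 2.97% of all genes tested called lower and 2.87% called higher. Their median log2 fold change was 0.00, against -0.01 over all genes tested. Mmp9, a gelatinase of migrating osteoclasts, fell from 5698, 5899 and 5589 CPM in WT to 5006, 4835 and 4894 CPM in KO (-0.22, SE 0.03, adjusted p = 0.00218). Ctsk, the collagen-degrading protease cathepsin K, fell from 5569, 5419 and 5649 CPM to 4646, 4988 and 4821 CPM (-0.20, SE 0.05, adjusted p = 0.0367). The Mmp9 call was kept without any 1 library, while that of Ctsk was lost without any 1 of the 6. Acp5, which encodes tartrate-resistant acid phosphatase, was at 4659, 4283 and 4430 CPM in WT and at 4110, 4073 and 3910 CPM in KO. Its groups did not overlap, but it missed the threshold (-0.15, SE 0.04, adjusted p = 0.0510) and passed it with DESeq2, voom, upper-quartile scaling or a filter of 5 CPM in 3 libraries. Nfatc1, the master transcription factor of osteoclast formation, had the same mean level within its spread, 301 ± 22.1 CPM in WT and 300 ± 13 CPM in KO (SD, n = 3 each, adjusted p = 0.999 by edgeR). Calcr, the calcitonin receptor, was at 91.9 ± 8.09 and 92.7 ± 3.59 CPM (adjusted p = 0.967 by edgeR).

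Genes of the machinery of resorption moved little. Of 26 lysosomal proteins 1 rose, the cholesterol exporter gene Npc1 (0.23), and of 15 V-ATPase subunits, which pump protons into the resorption pit, 1 fell, Atp6v1f (-0.18). Among 21 podosome and sealing zone genes 1 rose, Cbl (0.39, SE 0.08, adjusted p = 0.017), a ubiquitin ligase that binds Src in the sealing zone. Of 10 negative regulators of osteoclast formation, Irf8, a transcription factor that holds back NFATc1, rose from 111 ± 7.34 to 128 ± 4.21 CPM (0.21, SE 0.05, adjusted p = 0.0393 by edgeR). Tnfrsf11b, the decoy receptor osteoprotegerin, fell (-1.53, SE 0.42, adjusted p = 0.044) at a level of at most 1.02 CPM in any viable library. The calls of Irf8, Tnfrsf11b and Npc1 were each lost in at least 5 of the 6 fits without 1 library. The counts of these lists compare with 2.87% of all genes tested called higher and 2.97% called lower.

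Among ITAM adaptors, receptors and genes of Syk-Card9 signalling, 2 of 28 rose and 0 fell, against 2.87% of all genes tested called higher, with a median of 0.06. Fcgr2b, the inhibitory Fc gamma receptor, rose from 147, 134 and 153 CPM in WT to 177, 176 and 178 CPM in KO (0.29, SE 0.05, adjusted p = 0.00374). The KO libraries lay above all WT libraries, and the call was kept without any 1 library. Among 15 genes of calcium and calcineurin signalling, Itpr2, a calcium release channel, rose (0.30, adjusted p = 0.0186). Of 11 further C-type lectins, Clec12a, an inhibitory receptor for uric acid crystals, fell from 495 ± 10.5 to 434 ± 3 CPM (-0.19, SE 0.05, adjusted p = 0.0425 by edgeR, n = 3 each) and lost the call without any 1 library. The calcium and C-type lectin counts compare with 2.87% of all genes tested called higher and 2.97% called lower.

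Among the largest falls, Camk2b and Slc15a2 were almost lost from KO osteoclasts, while Cnbd2 and Wdfy1 fell to a lower level that was still measured. Camk2b, a subunit of a calcium- and calmodulin-dependent kinase, was at 4.56, 3.8 and 3.69 CPM in WT and at 0.0957, 0.121 and 0.0405 CPM in KO (-5.53, SE 0.36, adjusted p = 1.82e-07). Slc15a2, a transporter of small peptides, was at 2.2, 1.11 and 1.75 CPM and at 0.0478, 0.121 and 0.081 CPM (-4.31, SE 0.42, adjusted p = 1.99e-05). The KO levels of both genes were under 3 counts in each library. Cnbd2, which encodes a protein with a cyclic nucleotide-binding domain, fell from 33.7, 35.9 and 31.9 CPM to 3.73, 3.81 and 3.32 CPM (-3.23, SE 0.10, adjusted p = 1.41e-11). Wdfy1, an endosomal protein that binds a phosphoinositide, fell from 101, 96.5 and 107 CPM to 21.6, 22.6 and 24 CPM (-2.16, SE 0.06, adjusted p = 1.81e-12). In both genes the libraries of a genotype lay close together and the genotypes far apart. Groups without overlap were a condition for the largest falls and rises named here.

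Rab4a, a small GTPase of recycling endosomes, fell by a log2 fold change of -2.42, Inpp5j, an inositol phosphatase, of -2.34, and Nbea, a scaffold of membrane traffic, of -1.91. Xlr, an X-linked lymphocyte-regulated gene with near-identical copies, fell as well (-1.48), and its count is uncertain for that reason. Retnla (-2.19, adjusted p = 0.0404) and Arg1 (-1.55, adjusted p = 0.0263) are taken up with alternative activation. Aebp1 (-1.79), Loxl1 (-1.57), Col1a1 (-1.55) and Col8a1 (-1.53), all of the extracellular matrix or its assembly, complete the 15 with Clec4e. The calls of Rab4a, Inpp5j, Nbea, Cnbd2, Wdfy1, Camk2b, Slc15a2 and Xlr were kept without any 1 library. Those of Retnla and Arg1 and of the 4 matrix genes were each lost without at least 2 of the 6.

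The largest rises outside the antibody genes were in genes at a low level in WT, except Wwc2. Ifi208, a member of the Ifi200 family of DNA-binding proteins, was at 0.161, 0.234 and 0.12 CPM in WT and at 4.11, 3.51 and 5.22 CPM in KO (4.77, SE 0.30, adjusted p = 1.14e-07). Eps8l1, a regulator of actin dynamics, went from 0.215, 0.0584 and 0.339 CPM to 5.26, 5.45 and 5.71 CPM (4.43, SE 0.34, adjusted p = 1.31e-06). No KO library of either gene came near a WT library, though groups without overlap were a condition of the choice. Atp9a, a lipid flippase of endosomes, rose by 4.06 (SE 0.44), and Lrmda, a gene of melanocyte differentiation, by 2.84 (SE 0.18), from 0.815 ± 0.258 to 6.41 ± 0.299 CPM. Mid1, an X-linked ubiquitin ligase bound to microtubules, rose by 2.79, Mtus2, a microtubule-associated protein, by 2.18, and Rims2, a scaffold of vesicle release, by 0.99. Wwc2, of the Hippo pathway, was the most abundant of them and went from 17.6, 20.1 and 20.3 CPM to 37.8, 39.4 and 39.6 CPM (1.00, SE 0.07, adjusted p = 1.82e-07). The Rims2 call was lost without KO viable 1, KO viable 2 or WT viable 2, and the other calls of this paragraph were kept without any 1 library.

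The remaining 7 of the 15 largest rises were in genes of antibodies. Igkc, the kappa constant region, was at 3.32, 4.32 and 4.86 CPM in WT and at 13.6, 13.5 and 12.8 CPM in KO (1.63, SE 0.15, adjusted p = 8.46e-06). Ighg2b, a heavy chain constant region, was at 1.66, 1.52 and 2.81 CPM and at 13.5, 12.6 and 11.1 CPM (2.51, SE 0.21, adjusted p = 2.82e-06). The 2 genotypes were apart in both genes, as the choice of the largest rises required. Igha rose by 1.35, Jchain, which joins antibody units, by 1.67, and the variable segments Igkv10-96 and Ighv1-53 by 4.48 and 3.20, the last a call lost without KO viable 3. Igkv8-21 had 1 count in all WT libraries together and 136 in KO, a depth-scaled ratio of 188 with a 95% counting interval of 33.2 to 7486. Over all 18 immunoglobulin genes tested, a group set after their values were seen, 10 rose and 0 fell, against 2.87% of all genes tested called higher. Their sum was 64.8 to 69.5 CPM in WT and 103 to 120 CPM in KO. The 10 lymphoid cell markers, which include the immunoglobulin gene Ighm, summed to 53.8 to 63.8 CPM in WT and 62 to 76.1 CPM in KO. Only 5 had enough counts to test and none of these passed. The part of lymphoid cells in the result was not tested. Immunoglobulin segments share sequence, and how reads were divided among them is not given in the sources used here.

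**Figure D2:**
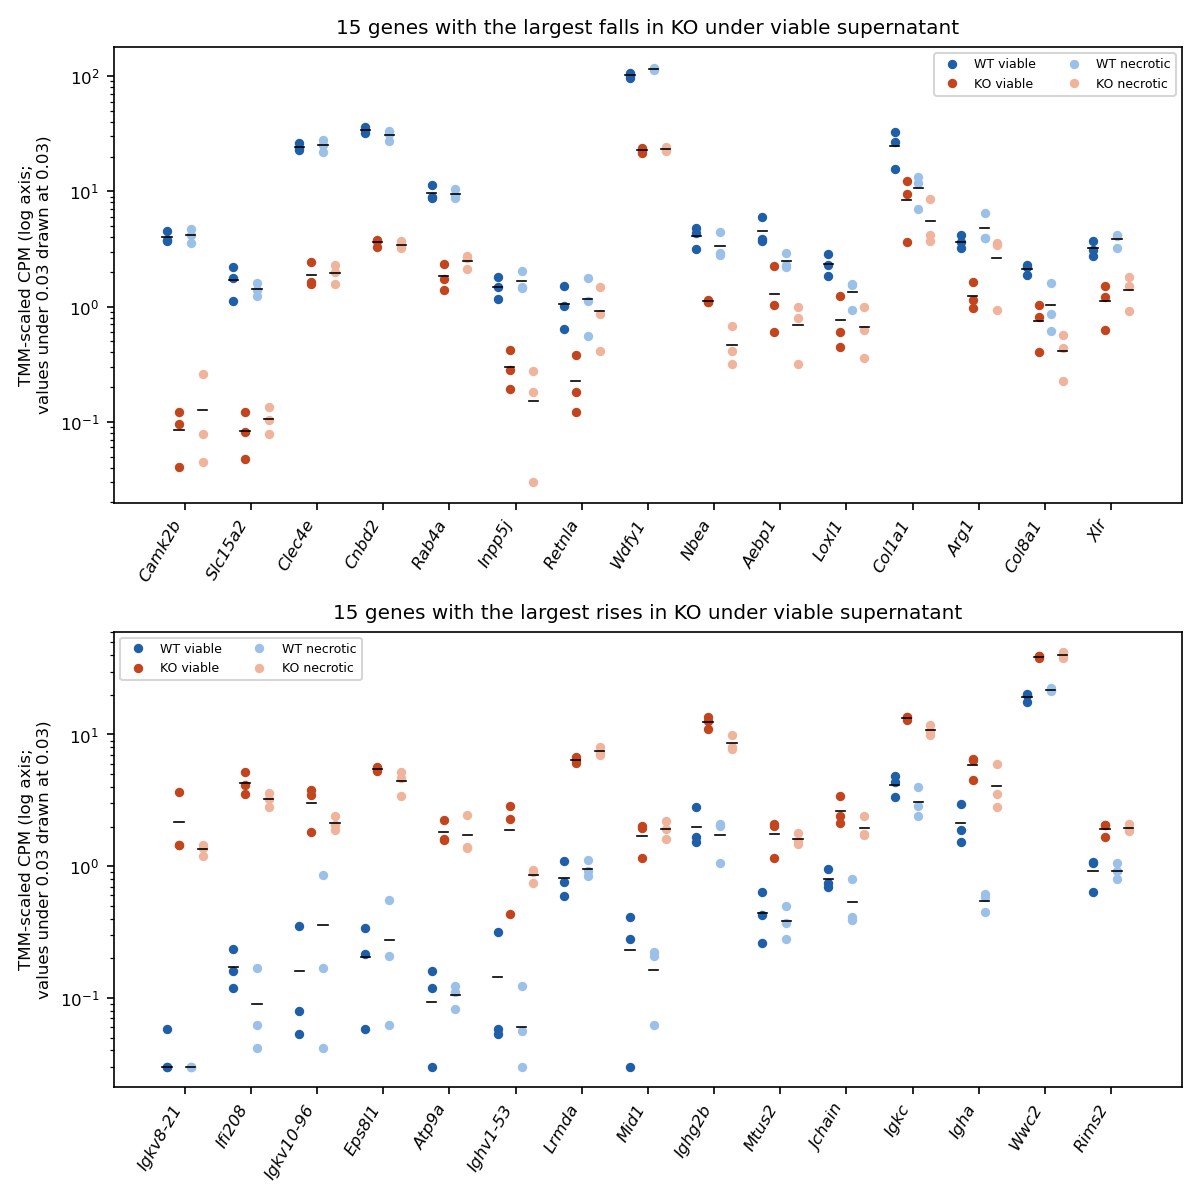
Levels in TMM-scaled CPM on a log axis for the 15 largest falls (top) and rises (bottom), with 1 point per library and a black bar at the mean of the 3 libraries of a group. Dark colours are the viable and pale colours the necrotic libraries, and Camk2b, at 3.69 to 4.56 CPM in WT viable, lies at 0.121 CPM or lower in all KO viable libraries.

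Ifi200 genes encode sensors of DNA and regulators of transcription that lie together on chromosome 1. Beside Ifi208, Ifi209 rose from 49.7, 52 and 66.5 CPM to 72.4, 74.2 and 89.1 CPM (0.47, SE 0.10, adjusted p = 0.0168), a call lost without KO viable 3, WT viable 1 or WT viable 2. The family counted 2 higher and 0 lower of 12, against 2.87% of all genes tested called higher. Its median was 0.28 with 11 of 12 above 0, and members with similar sequence can share reads. The wider interferon response did not pass: 0 of 28 interferon-stimulated genes were called, with a median of 0.14. Of 15 interferon-inducible GTPases 1 rose, Gbp5 (0.53, adjusted p = 0.0499), against the same 2.87% of all genes tested called higher. None of 10 genes of MHC class II and none of 16 of MHC class I presentation passed.

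Several surface receptors of myeloid cells were higher in KO. Of 22 cytokine and growth factor receptors 7 rose and 0 fell, against 2.87% of all genes tested called higher, with a median of 0.16. Tnfrsf1b, a receptor for tumour necrosis factor, rose from 289, 273 and 286 CPM to 366, 374 and 346 CPM (0.36, SE 0.06, adjusted p = 0.0064). Csf2rb, the shared beta chain of the receptors for GM-CSF, interleukin-3 and interleukin-5, rose from 210, 217 and 216 CPM to 258, 262 and 247 CPM (0.25, SE 0.04, adjusted p = 0.00398). Its close copy Csf2rb2, the beta chain used by interleukin-3 alone, rose from 77.3, 79.4 and 76.7 CPM to 94, 92.8 and 93.1 CPM (0.26, SE 0.05), and reads may be shared by the pair. In each of these genes the 3 KO libraries lay above the 3 WT libraries, and the calls were kept without any 1 library. Il10ra (0.25), Il6ra (0.19), Il13ra1 (0.26) and Il4ra (0.23), receptor chains for interleukins 10, 6, 13 and 4, also rose. The members' transcripts had a median length of 3863 bases, above the 3107 bases of all genes tested, and 6 passed as higher once length and GC trends were taken out. The count was 3 without KO viable 2, 4 without KO viable 3 or WT viable 1, and 5 without any other library.

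Among receptors for dead cells and lipids, 3 of 14 scavenger and clearance receptors rose and 0 fell, against 2.87% of all genes tested called higher. Stab1, a scavenger receptor of macrophages, rose from 1251, 1230 and 1212 CPM to 1649, 1495 and 1616 CPM (0.37, SE 0.05, adjusted p = 0.000778). Mertk, a receptor kinase for dying cells, rose by 0.29 (adjusted p = 0.0126) and Cd36, a fatty acid and lipoprotein receptor, by 0.25 (adjusted p = 0.0388). The call of Stab1 was kept without any 1 library, that of Mertk was lost without KO viable 2, KO viable 3 or WT viable 2, and that of Cd36 without any 1 of the 6. Of 17 Toll-like receptor genes, Tlr8, an endosomal sensor, rose from 69.9, 78.9 and 89.9 CPM to 108, 115 and 108 CPM (0.46, SE 0.09, adjusted p = 0.00815). Tlr13, a sensor of bacterial ribosomal RNA in mice, rose by 0.26 (adjusted p = 0.0369). Of 15 complement genes 2 rose and 0 fell, among them Cd93 (0.34), a call kept without any 1 library. The Toll-like and complement counts, and that of the macrophage markers below, likewise compare with 2.87% of all genes tested called higher. The macrophage markers summed to 6872 to 7526 CPM in WT and 7900 to 7924 CPM in KO, with Mrc1 and Mertk higher among 13, and their part in these results was not tested. In bulk RNA, more cells of a type and more RNA per cell cannot be told apart.

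Genes of iron and redox handling rose in 4 of 19 cases and fell in 0, against 2.87% of all genes tested called higher. Slc40a1, which encodes ferroportin, the iron exporter, went from 193, 182 and 197 CPM to 248, 258 and 232 CPM (0.37, SE 0.06, adjusted p = 0.00211). Slc11a1, the metal transporter of phagosomes, rose by 0.22, Gclm, of glutathione synthesis, by 0.22 and the cystine transporter gene Slc7a11 by 0.67, from 3.16 ± 0.234 to 5.06 ± 0.247 CPM. The Slc40a1 call was kept without any 1 library, while those of the other 3 were each lost without at least 5 of the 6. Of 19 purinergic receptors and ectoenzymes, the ATP-degrading Entpd1, also known as CD39 (0.37, adjusted p = 0.00602), and the ATP-gated channel gene P2rx7 (0.30, adjusted p = 0.0159) rose. Of 18 coupling and guidance factors, the semaphorin receptor chains Nrp1 (0.30, SE 0.04, adjusted p = 0.0014), Plxna1 (0.34) and Plxnc1 (0.29) rose and 0 fell. The counts of these lists compare with 2.87% of all genes tested called higher. With length and GC trends removed, 2 coupling and guidance factors rose, and their median went from 0.04 to -0.00. The Nrp1 call was kept under every alternative run, and those of Plxna1 and Plxnc1 were not. Nrp1 was at 186, 184 and 187 CPM in WT and at 221, 236 and 226 CPM in KO, with no overlap.

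Nuclear genes of mitochondrial respiration were lower in KO by small amounts. Of 75 tested, 27 fell and 0 rose, against 2.97% of all genes tested called lower, with a median log2 fold change of -0.22 and 72 of 75 below 0. The falls reached 14 of 37 genes of complex I, 1 of 4 of complex II, 2 of 10 of complex III and cytochrome c, 4 of 10 of complex IV and 6 of 14 of complex V, the ATP synthase. Ndufa9, of complex I, fell from 111, 102 and 102 CPM to 84.8, 86 and 89.8 CPM (-0.28, SE 0.04, adjusted p = 0.00295). Cyc1, cytochrome c1 of complex III, fell from 245, 231 and 235 CPM to 202, 204 and 204 CPM (-0.22, SE 0.05, adjusted p = 0.0148). In both the KO libraries lay below all WT libraries. Cox7a2 of complex IV (-0.33) and Ndufb7 of complex I (-0.28) fell as well, while none of 12 mitochondrially encoded genes passed and their median was -0.01.

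The count of respiration genes moved with single libraries and with transcript length. It was 2 without WT viable 1, 3 without KO viable 1, 4 without KO viable 2 or without KO viable 3, 11 without WT viable 2 and 34 without WT viable 3. These transcripts were short, with a median of 1141 bases, and 8 fell, with a median log2 fold change of -0.13, once length and GC trends were taken out. In the fifth of genes with the shortest transcripts, 8.48% were called lower before the trends were removed. The relation of the log2 fold change to length over all genes had a rho of 0.38 without WT viable 1.

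Enzymes of pyruvate entry and the TCA cycle fell in 6 of 20 cases and rose in 0, against 2.97% of all genes tested called lower, with a median of -0.17 and 19 of 20 below 0. Pdhb, of pyruvate dehydrogenase, went from 225, 213 and 226 CPM to 189, 187 and 194 CPM (-0.22, SE 0.04, adjusted p = 0.0105). Ogdh (-0.23), Fh1 (-0.18) and Idh3b (-0.17), enzymes of the cycle, also fell. The count went from 6 to 4 without KO viable 1, to 2 without WT viable 1 or WT viable 3, to 1 without KO viable 3 or WT viable 2, and to 0 without KO viable 2. Once length and GC trends were taken out, 5 fell. Of 22 glycolysis genes 4 fell, among them Ldha, lactate dehydrogenase A (-0.25), and Tpi1 (-0.22), and 2 rose, Hk3 (0.15) and Pfkfb4 (0.22). Over all genes tested 2.97% were called lower and 2.87% higher. The glycolysis list counted at most 2 calls when any 1 library was left out. Of 28 cytosolic ribosomal proteins 9 fell, among them Rpl8 (-0.25), Rpl18 (-0.30) and Rpl11 (-0.27), and 0 rose, against 2.97% of all genes tested and 8.48% of the fifth with the shortest transcripts called lower. Their transcripts had a median length of 1199 bases, and with the trends removed 0 passed and the median went from -0.21 to -0.11. The count was 0 without KO viable 2, KO viable 3 or WT viable 1, 2 without KO viable 1 or WT viable 2, and 12 without WT viable 3. Of 33 cell cycle and DNA replication genes 4 fell, Aurka (-0.26), Mcm6 (-0.25), Pcna (-0.20) and Mcm3 (-0.21), against 2.97% of all genes tested called lower. Each of these 4 calls was lost under at least 1 alternative run. Under necrotic supernatant 0 of the 33 fell and 1 rose.

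**Figure D3:**
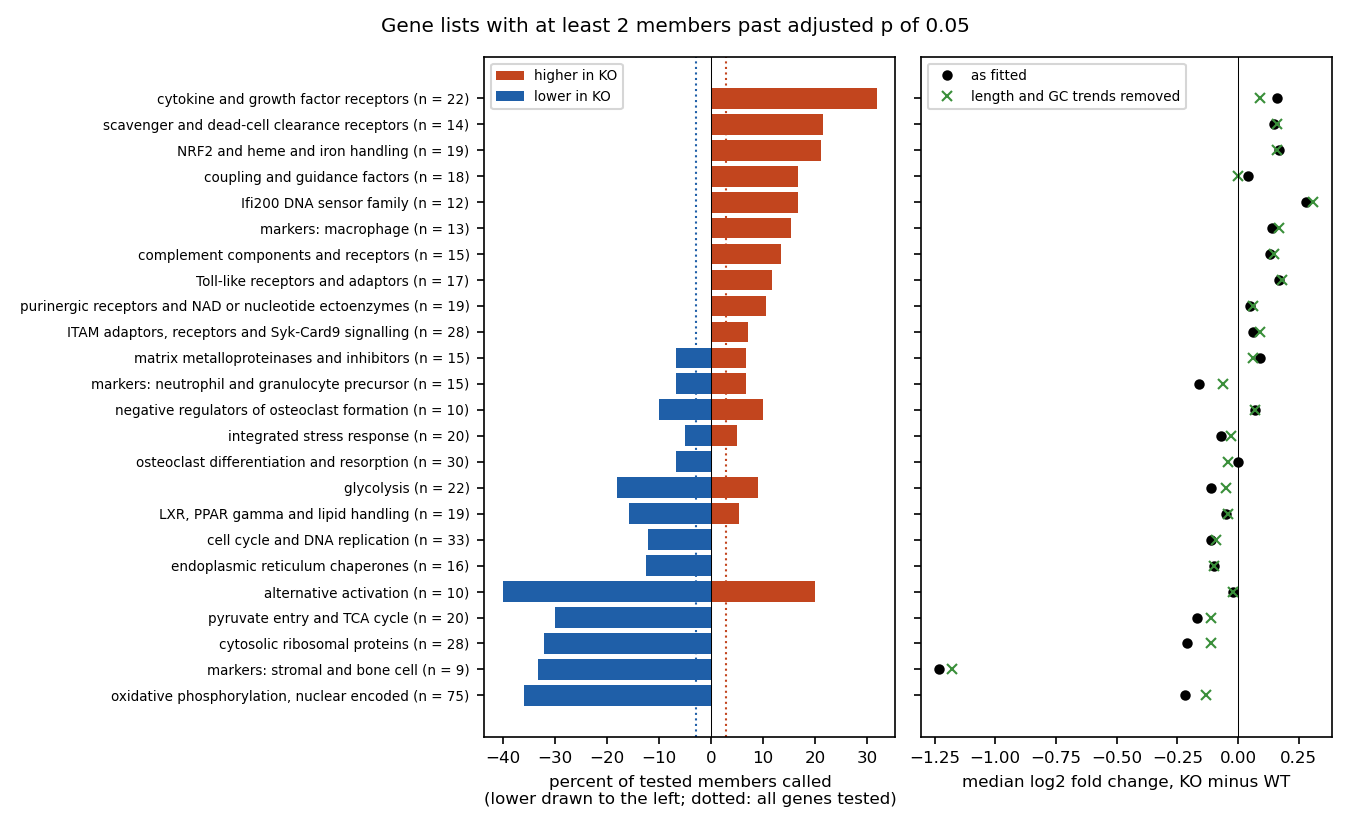
Left, the percent of tested members called higher (right of 0) or lower (left of 0) in KO for lists with at least 2 calls, with dotted lines at the shares over all genes tested. Right, the median log2 fold change as fitted (dots) and with length and GC trends removed (crosses), where respiration moves from -0.22 to -0.13 and ribosomal proteins from -0.21 to -0.11.

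Genes of alternative macrophage activation, a state driven by interleukins 4 and 13, moved in both directions. Of 10, 4 fell and 2 rose, against 2.97% of all genes tested called lower and 2.87% called higher. Retnla, a secreted protein of the resistin family, was at 1.5, 0.642 and 1.02 CPM in WT and at 0.383, 0.182 and 0.121 CPM in KO. Arg1, which degrades arginine, was at 3.65, 3.21 and 4.15 CPM and at 1.15, 0.969 and 1.62 CPM. Both were of low level, and the lack of overlap between the genotypes was a condition for naming them among the largest falls. Chil3, a chitinase-like protein, fell from 399, 323 and 355 CPM to 269, 288 and 300 CPM (-0.33, SE 0.08, adjusted p = 0.0261), and Pparg, a nuclear receptor of lipids, from 16.9 ± 0.795 to 13.4 ± 1.21 CPM (-0.34). Mrc1, the mannose receptor, rose from 583, 569 and 618 CPM to 767, 692 and 717 CPM (0.30, SE 0.06, adjusted p = 0.0168), as did Il4ra. The calls of Retnla, Arg1, Chil3, Pparg and Mrc1 were each lost in at least 4 of the 6 fits without 1 library, and 0 of the 10 passed without KO viable 1, KO viable 3 or WT viable 1. Lpl, lipoprotein lipase, fell from 2592, 2643 and 2510 CPM to 2125, 2191 and 2090 CPM (-0.27, SE 0.04, adjusted p = 0.0017), a call kept without any 1 library.

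Transcripts of matrix-producing cells were lower in KO. Of 9 stromal and bone cell markers tested 3 fell, Col1a1 (-1.55), Col1a2 (-1.26) and Col3a1 (-1.36), and the summed level of the list was 67.7 to 103 CPM in WT and 27 to 52.2 CPM in KO, with Sost, a marker of osteocytes, at 0 in all. Col1a1, type I collagen, was at 26.6, 32.6 and 15.6 CPM in WT and at 12.2, 9.51 and 3.64 CPM in KO, so that the replicates of a genotype differed widely and the gap between the genotypes was small. Without KO viable 3 or without WT viable 2 none of the 9 passed. Over 25 collagen genes, a group set after their values were seen, 9 fell and 0 rose. The stromal and collagen counts compare with 2.97% of all genes tested called lower. The stromal marker list counted 1 without KO viable 2 or WT viable 1. The part of stromal cells in the collagen result was not tested.

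Markers of other blood cells differed less under viable supernatant. Of 15 neutrophil markers S100a9, an alarmin of granulocytes, fell from 398, 356 and 373 CPM to 274, 301 and 300 CPM (-0.37, SE 0.06, adjusted p = 0.00211). Mmp8, the neutrophil collagenase, rose from 209, 189 and 183 CPM to 271, 280 and 257 CPM (0.48, SE 0.09, adjusted p = 0.00839). The list summed to 1605 to 1686 CPM in WT and 1470 to 1549 CPM in KO. Of the 15, 12 lay below 0, and the median was -0.16, or -0.06 once length and GC trends were taken out. Its 1 rise and 1 fall compare with 2.87% of all genes tested called higher and 2.97% called lower. Under necrotic supernatant 8 of the 15 were called lower and 0 higher, with a median of -0.29, against 3.12% of all genes called lower there. None of 10 dendritic cell, 5 mast cell and basophil (Cma1 and Tpsb2 at 0), or 6 erythroid and platelet markers passed.

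No member passed among 11 inflammatory mediators, 20 chemokines and chemokine receptors, 14 subunits and targets of NF-kB, 20 immediate early genes, 12 glucocorticoid receptor targets, 14 hypoxia genes, 21 genes of cholesterol synthesis and uptake, or 11 Cd300 receptors. Their median log2 fold changes lay between -0.16 (hypoxia) and 0.14 (Cd300 receptors and glucocorticoid targets). Of 16 endoplasmic reticulum chaperone genes 2 fell, the transcription factor gene Xbp1 of the unfolded protein response (-0.35, SE 0.04, adjusted p = 0.000248) and Pdia6 (-0.21). Xbp1 was at 150, 146 and 151 CPM in WT and at 115, 115 and 121 CPM in KO, with no overlap. Hspd1, a mitochondrial chaperone, fell as 1 of 12 heat shock genes (-0.24). Among 20 genes of the integrated stress response Psat1 (-0.26) fell and Slc7a11 rose, and Trp53inp1 rose among 13 p53 targets (0.26). The counts of these lists compare with 2.97% of all genes tested called lower and 2.87% called higher.

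By position, calls gathered in a stretch of chromosome 11. Of 229 windows of 10 Mb with at least 20 tested genes, the median share called was 5.1%, and 2 windows passed 3 times the share of all genes. The first 10 Mb of chromosome 11 held 24 calls among 78 genes (30.8%), 7 higher and 17 lower, all between 3131850 and 6356642 (GRCm38). This stretch was bounded by its own first and last called genes, which raises its share, 24 of 62 genes (38.7%). The 16 uncalled genes of the window outside it count with the rest of the chromosome, where 51 of 1087 genes passed (4.69%). Camk2b, Inpp5j, Aebp1, Xbp1 and Ogdh lie in this stretch, with 8430429K09Rik, a clone-named gene (-4.25), and Nefh, the heavy neurofilament, which had 34 counts in WT and 0 in KO, at least 8.19-fold lower against 3 counts over the group. The first 10 Mb of chromosome 18 held 4 calls among 22 genes (18.2%), Mpp7 (0.64, SE 0.07), Colec12 (0.35), Svil (0.24) and Usp14 (-0.15). That is 3.11 times the share of all genes, just past the limit, against 5.27 times for the chromosome 11 window. With windows of 5 Mb, 10 of 273 passed 3 times the share, among them windows on chromosomes 7, X and 6. Around the targeted gene, 3 of 24 genes within 1 Mb (12.5%) and 9 of 111 within 5 Mb (8.11%) passed, among them Clec4n, Gdf3 (0.87), Dppa3 (0.78) and Ndufa9.

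**Figure D4:**
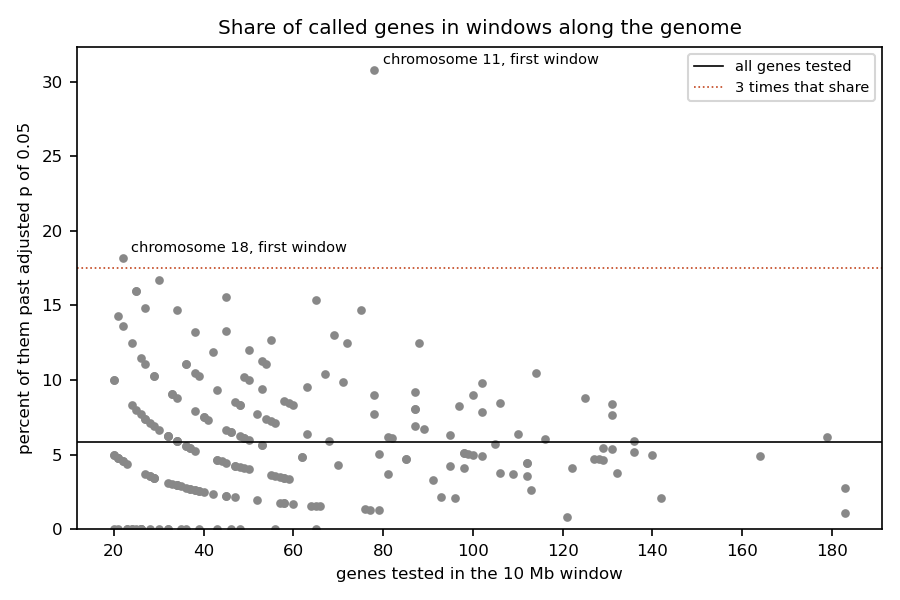
Each point is a 10 Mb window, with the number of genes tested on the horizontal axis and the percent past the adjusted p on the vertical axis. The solid line is the share over all genes, 5.84%, the dotted line 3 times that, and the first windows of chromosome 11 (30.8%) and chromosome 18 (18.2%) lie above it.

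The necrotic libraries gave the same genotype contrast between group means of 6 other libraries. Both contrasts came from 1 fit, in which the gene filter, the scaling and the estimated spread used all 12 libraries. The 2 lists of calls are therefore not from separate fits. Under necrotic supernatant, 1150 genes (8.13%) passed, 708 higher (5%) and 442 lower (3.12%). Both contrasts called 329 genes, 39.8% of the viable and 28.6% of the necrotic calls, all in the same direction. Of the 827 viable calls, 775 (93.7%) had the same sign under necrotic supernatant, against 68.3% of all genes tested. Both contrasts also shared a trend with transcript length, with a rho of 0.51 under viable and 0.49 under necrotic supernatant. The part of that trend in the matching signs was not tested. Of the 85 viable calls of at least 2-fold, 55 were also called under necrotic supernatant. The other 30 were not. The log2 fold changes under viable and necrotic supernatant were -5.53 and -5.05 for Camk2b, -3.23 and -3.15 for Cnbd2, -2.16 and -2.31 for Wdfy1, 4.77 and 5.13 for Ifi208 and 4.43 and 3.98 for Eps8l1. The values lay further apart for others, at -6.25 and -3.38 for Nefh, 4.48 and 2.72 for Igkv10-96, 1.35 and 2.86 for Igha, -2.34 and -3.29 for Inpp5j and -1.91 and -2.84 for Nbea. In the stretch of chromosome 11, 23 of the 24 calls were made in both.

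Other differences had smaller values under necrotic supernatant. Retnla was -0.31 there (adjusted p = 0.714), Tnfrsf1b 0.01, Il10ra 0.00, Csf2rb2 -0.01 and Fcgr2b 0.00, and 0 of the 22 receptors, 9 of the 75 respiration genes and 1 of the 9 stromal markers (Pdgfrb, -0.83, named after its value was seen) passed. The test of the difference itself (necrotic minus viable) passed no gene at an adjusted p of 0.05, with 1064 genes (7.52%) at an unadjusted p of 0.05, and DESeq2 called 5. The lowest adjusted p was 0.571, and the gene with the smallest p was Rarb, a retinoic acid receptor, at 1.62 under viable and -1.43 under necrotic supernatant and at most 0.574 CPM in any viable library. A difference between the supernatants was therefore not shown for these genes.

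**Figure D5:**
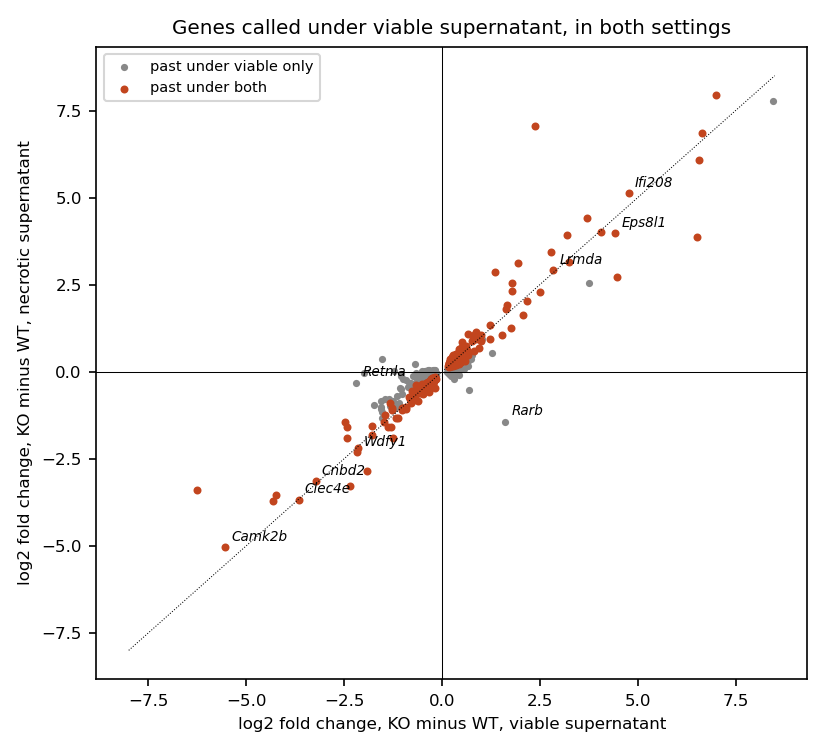
Each point is 1 of the 827 genes called under viable supernatant, with its log2 fold change of KO against WT there on the horizontal axis and under necrotic supernatant on the vertical axis. The 329 genes called under both are coloured and lie in the lower left and upper right, and Retnla, at -2.19 and -0.31, is off the dotted line of equal values.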

How the data were processed

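Raw, unnormalized counts of 46983 Ensembl genes in 12 libraries were deposited by the authors. CASAVA, HISAT2 2.0.5, HTSeq 0.6.1 and GRCm38 are named in the submitters' processing notes, and a NEBNext Ultra kit and paired-end sequencing per the labels' protocols. For annotation release, strand setting and multimapped reads, details were not given in the sources used here, so genes that overlap or have near-identical copies are uncertain. Symbols, positions, lengths and GC contents came from GENCODE M21, which matched 46488 identifiers and left 495. Promoters came from RefSeq.

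Samples were grouped by title. Genes were kept with filterByExpr, scaled by TMM, and fitted with edgeR 4.0.16 in R 4.3.3 as 4 group means over 12 libraries (8 residual degrees of freedom, biological coefficient of variation 7.18%). Tests were two-sided quasi-likelihood tests with Benjamini-Hochberg adjustment over the 14153 genes and a threshold of 0.05, and every adjusted p is from this fit unless another tool is named. An SE is the size of the log2 fold change divided by the root of F. Relations to length used the 10143 genes with a length and a mean of at least 5 CPM. The fit was also tested on simulated data with known changes. Replicates correlated at 0.990 to 0.995 and differed by more than sampling noise.

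The text names Clec4e, the cluster lectins and 4 osteoclast genes, the 15 largest changes in each direction (adjusted p, at least 1 CPM in the higher group, no overlap, no predicted-gene name), up to 4 members of each of 50 lists by smallest p, and up to 5 genes of windows over 3 times the background. Other genes are named to complete a small count, and some genes that the rule names are not reported here. The genes, lists and rules were chosen with earlier results of these data known. As alternatives, fits used upper-quartile or median-ratio factors, DESeq2 1.42.0, voom of limma 3.58.1, no filter, 5 CPM in 3 libraries, the 2 groups alone, a replicate block, WT viable 3 thinned, length and GC offsets, a 2-fold limit and each library left out. Left out of the report were the responses to necrotic supernatant.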

Additional observations from a re-analysis of the deposited data

How the results depend on the processing

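The count of 827 genes under viable supernatant went to 449 with the compared groups alone, 1618 without a filter and 85 with a 2-fold limit, and to between 227 and 894 with 1 library left out. The count of 1150 under necrotic supernatant went to 650 with length and GC trends removed, 1857 without a filter and 114 with a 2-fold limit, and to between 163 and 1380 with 1 library left out. The count of 0 for the difference went to 5 with DESeq2 and 209 without a filter, and stayed 0 with any 1 library left out. The cause of these moves was not tested, except that fits with fewer samples have fewer degrees of freedom. DESeq2 gave 1144 genes under viable supernatant. With the replicate number as a block the viable count was 744. Same-numbered libraries deviated together with correlations of 0.143, 0.0149 and 0.122, and not every library correlated best with its own number, so the numbers were not taken as pairs. Of 107 called named genes, 45 kept the call under every alternative run. Of 1825 values of named genes under alternatives, 1506 kept their side of the threshold, 313 lost the call and 6 gained it. The sign changed in 0 cases where either value was past the threshold. Changes of sign between values that were both not past it were not counted. The respiration count of 27 was 45 with DESeq2, 54 without a filter, 39 with upper-quartile factors and 8 with the compared groups alone, list counts under alternatives being chosen after seeing the data. A level under 3 counts in a library is known only up to that limit.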

Other observations

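Nnt, which encodes the mitochondrial transhydrogenase that makes NADPH, was chosen after its values were seen. It was at 83.3, 84.9 and 91.4 CPM in WT viable and at 48.5, 45.3 and 43.6 CPM in KO viable libraries (log2 fold change -0.92, SE 0.06, adjusted p = 1.01e-07), and its log2 fold change was -1.08 under necrotic supernatant. The genotypes lay apart in all 6 viable libraries. Of 6 tested genes on the Y chromosome 3 rose in KO, against 2.87% of all genes tested called higher. Among them were Eif2s3y, a translation factor (0.47, adjusted p = 2.86e-05), and Kdm5d, a histone demethylase (0.30, adjusted p = 0.034). Ddx3y was at 66.2 to 82.8 CPM and Uty at 28.3 to 34 CPM across the viable libraries, with overlap between the genotypes. Xist, which is abundant in female cells, had 5 counts over the WT viable and 0 over the KO viable libraries. Y transcripts were thus present, and Xist all but absent, in both genotypes. Of 9 tested genes in the last 1.5 Mb of the X chromosome 4 rose, among them Mid1, against the same 2.87% of all genes. The Y chromosome group and the X chromosome group, with its limit of 1.5 Mb, were set after their values were seen. Of 77 mitochondrial ribosomal protein genes, a group set after their values were seen, 10 fell and 0 rose. This compares with 2.97% of all genes tested and 8.48% of the fifth with the shortest transcripts called lower. Of the 77, 76 lay below 0, the median was -0.17, and 6 fell once length and GC trends were taken out. The collagen genes summed to 273 to 318 CPM in WT and 186 to 225 CPM in KO.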
